A study of Mus musculus with 56 samples.

Results

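The regions of histone H3 acetylated at lysine 27 (H3K27Ac) were compared between untreated bone marrow-derived macrophages (BMDMs) and BMDMs exposed to IL-4 for 1 hr. The 4 H3K27Ac samples, 2 untreated and 2 treated, were taken from the 56 samples of the series by antibody and treatment, and every region in their lists was used. The lists hold 27750 and 27797 regions without IL-4, against 26995 and 26982 with it, and overlapping regions were merged into 31999 loci, of which 23151 had a region in all 4 samples and were tested. The score of a region is its number of sequenced tags per 10 M (M, 1000000) tags of its library, and a locus was named after the gene whose transcription start site (TSS) was nearest in the files, which need not be the gene it acts on.

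The cells came from wild-type C57BL/6 mice aged 8 to 12 weeks, whose marrow was grown for 6 days with L929 supernatant, a source of M-CSF. The treated cells received 20 ng/ml IL-4 and the controls nothing. BMDMs are thus primary cells matured in a dish, and the labels name neither the animals nor any pooling of them. The study asked how early IL-4, acting through STAT6, switches enhancers on and off in macrophages. It describes the replicates as biologically independent, but as the labels name no cultures, p-values here measure only the spread between these samples, which may be technical.

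H3K27Ac is placed by acetyltransferases such as p300 and removed by histone deacetylases, and it marks active promoters and active enhancers. IL-4 binds its receptor on macrophages, Jak kinases phosphorylate STAT6, and STAT6 enters the nucleus and binds DNA as a dimer. Macrophages exposed to IL-4 turn on a program called alternative activation, with genes such as *Arg1*, *Mgl2*, and *Retnla*, while many inflammatory genes are held down.

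A STAT dimer reads TTC and GAA facing each other, and a spacer of 4 bases, TTCNNNNGAA, is the spacing that STAT6 prefers. The following stretches of mouse DNA (RefSeq GRCm38.p6, plus strand, 5′ to 3′) are shown because they come from loci with the largest rises of H3K27Ac, or from loci near IL-4 response genes, and hold that pattern. The capitals mark the pattern nearest the centre of the locus.
Kdm4c, chr4:74363045-74363124: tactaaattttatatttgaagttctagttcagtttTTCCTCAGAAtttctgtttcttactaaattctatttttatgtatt
Rgs1, chr1:144283639-144283718: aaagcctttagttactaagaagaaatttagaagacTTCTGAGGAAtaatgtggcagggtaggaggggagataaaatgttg
Exo5, chr4:120914679-120914758: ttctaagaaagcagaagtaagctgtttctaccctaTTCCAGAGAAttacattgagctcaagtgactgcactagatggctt
Csf3r, chr4:126003832-126003911: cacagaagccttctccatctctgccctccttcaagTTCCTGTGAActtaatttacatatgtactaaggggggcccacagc
Socs1 distal, chr16:10695174-10695253: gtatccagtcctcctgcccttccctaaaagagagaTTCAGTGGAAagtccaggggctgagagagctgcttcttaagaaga
Socs1 promoter, chr16:10786055-10786134: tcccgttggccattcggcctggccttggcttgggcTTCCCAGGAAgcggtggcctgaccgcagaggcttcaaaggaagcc
Arg1, chr10:24930270-24930349: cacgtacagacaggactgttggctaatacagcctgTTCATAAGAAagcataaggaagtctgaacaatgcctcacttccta
Flt1, chr5:147758292-147758371: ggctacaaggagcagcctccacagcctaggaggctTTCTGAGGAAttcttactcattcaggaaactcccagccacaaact
The *Kdm4c* stretch lies in an intron of *Kdm4c*, the distal *Socs1* stretch in *Clec16a*, and the *Arg1* stretch in the predicted gene *Gm40616*, while the others lie in no RefSeq gene.

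For the loci with the largest falls, stretches with TGANTCA, a loose form of the AP-1 pattern, are shown for contrast, with the pattern in capitals. Its middle base was left free, and near *Kcnj16* it is T (TGATTCA).
Kcnj16, chr11:110697972-110698048: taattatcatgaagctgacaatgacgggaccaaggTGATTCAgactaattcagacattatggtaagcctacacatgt
Gldc, chr19:30107552-30107628: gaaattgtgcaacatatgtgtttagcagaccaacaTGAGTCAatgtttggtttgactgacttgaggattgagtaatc
Zfat, chr15:67977683-67977759: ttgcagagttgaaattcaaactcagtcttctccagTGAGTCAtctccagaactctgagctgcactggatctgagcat
Pid1, chr1:84303051-84303127: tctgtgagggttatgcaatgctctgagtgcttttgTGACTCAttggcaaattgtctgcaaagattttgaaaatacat
Those near *Kcnj16* and *Zfat* are intergenic, and those near *Gldc* and *Pid1* lie within these genes by RefSeq.

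Replicates were close to each other and the groups were apart. Across the tested loci, log2 scores correlated at r = 0.993 between replicates of either group and at 0.928 to 0.930 between samples of different groups, over loci that share each library. The libraries held 28.8 M to 32.6 M tags if HOMER's usual scaling applies, of which 30.8% to 31.7% fell in regions, and the treated libraries were the smaller ones. A region was found within 1 kb of the TSS of 3 of 10 macrophage markers in both untreated samples (*Fcgr1*, *Mertk*, and *Tyrobp*) and of 4 of 10 in both treated samples (*Csf1r* as well). The defining macrophage genes *Adgre1*, *Spi1*, *Cd68*, and *Lyz2* had no such region in these lists, although the RNAPII-pS5 lists of the same experiment held promoter peaks at 5 to 6 of the 10 markers, *Cd68* and *Lyz2* included. Summed over the list, the score was 1723.6 and 1629.6 without IL-4 and 2742.3 and 2612.5 with it, where *Csf1r* (1207.9 and 1185.1) was listed with IL-4 alone. The other 3 were lower with IL-4, as *Tyrobp* at 996.7 and 930.7 without and 888.7 and 824.8 with it, *Fcgr1* at 594.9 and 571.4 against 534.4 and 507.5, and *Mertk* at 132.0 and 127.5 against 111.3 and 95.1. Of the markers of other cells, *Cd28* and *Il7r* of 10 T cell genes, *Cd22* of 8 B cell genes, and *Klrb1c* of 6 NK cell genes had a promoter region in every sample, and *S100a8* of 10 neutrophil genes did too, while mast cell, erythroid, and fibroblast promoters had none. The sums of these lists were 441.7 to 651.1 for T cells, 19.1 to 35.6 for B cells, 24.6 to 42.7 for NK cells, and 40 to 67 for neutrophils. Their part in the results was not tested.

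After 1 hr of IL-4, H3K27Ac differed between the groups at 54.9% of the tested loci. Replicates differed by little more than counting error (mean chi-square per locus 1.3 untreated and 1.25 with IL-4), which makes small differences pass the test. Whether differences between cultures or preparations entered these calls was not tested. The score was higher at 5887 loci (25.4%), among them loci near *Socs1*, *Arg1*, *Rgs1*, and *Csf3r*, and lower at 6827 loci (29.5%), among them loci near *Fpr2*, *Clec4d*, and *Cxcl2* (limma on log2 scores, Benjamini-Hochberg adjusted p of at most 0.05 over all 23151 loci). Most changes were small, and 2197 loci (9.49%) rose and 2681 (11.6%) fell by at least 1.5-fold, a size limit added after the data were seen. The largest changes were rises. At least 4-fold rises were seen at 156 loci, nearest to 139 genes, and falls of that size at none, and the log2 change ran from −1.89 to 3.82. The samples of the groups did not overlap at 5748 of the higher loci and 6821 of the lower loci, where 31.1% and 44.3% of all tested loci had groups apart in that direction. Scores were centred on the median of each sample, which lay 0.05 lower (log2) with IL-4.

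**Figure D1:**
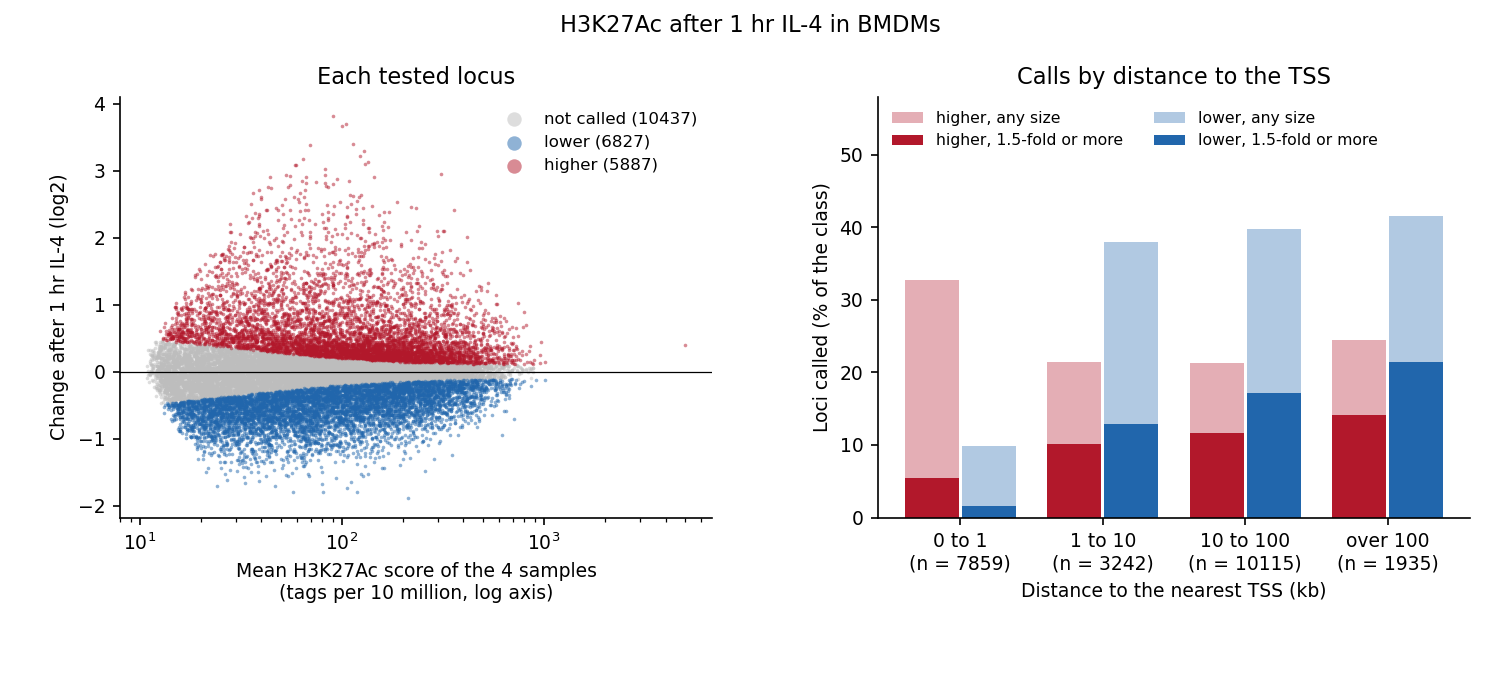
Left, each point is a tested locus, with its mean H3K27Ac score over the 4 samples in tags per 10 M (log axis) against its log2 change after 1 hr IL-4, in red for the 5887 higher and blue for the 6827 lower loci; rises reach 3.82 and falls −1.89. Right, bars give the percentage of loci called higher or lower in 4 classes of distance to the nearest TSS, with darker bars for changes of at least 1.5-fold; higher calls lead within 1 kb and lower calls lead in the 3 classes farther out.

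Promoters rose more often than they fell, and distal loci fell more often than they rose. Of 7859 promoter loci, within 1 kb of a TSS, 2568 (32.7%) rose and 780 (9.92%) fell, and the median change was 0.11 (log2). Of 15292 distal loci, 3319 (21.7%) rose and 6047 (39.5%) fell, with a median of −0.15. Changes at promoters were small. A change of at least 1.5-fold was seen at 426 promoters (5.42%) that rose and 122 (1.55%) that fell, against 1771 (11.6%) and 2559 (16.7%) of the distal loci, and the SD of the log2 change was 0.31 at promoters and 0.61 at distal loci. The share of rises among the called promoters was 76.7% and dropped to 65% when the scores were not centred, and the same step took the distal share from 35.4% to 31.0%. Loci over 100 kb from any TSS changed most often by at least 1.5-fold, with 14.1% of the 1935 such loci higher and 21.4% lower. The higher loci had a median distance to the TSS of 6.02 kb and the lower loci of 21.4 kb. By annotation, 8.95% of loci at the TSS fell, against 32.5% in introns and 41.2% between genes.

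The largest rise was at an intron of *Kdm4c*, which encodes a histone H3K9 demethylase, at chr4:74362705-74363705, whose sequence is shown above. Its score was 11.1 and 13.7 in the untreated samples and 168.2 and 167.7 with IL-4 (log2 change 3.82 ± 0.13 SE, limma adjusted p = 4.9e-36, n = 2 against 2). The locus 34.4 kb upstream of *Rgs1*, a regulator of G protein signaling, had 19.3 and 12.5 without and 190.4 and 196.1 with IL-4 (3.69 ± 0.13). In both, the treated samples were close together and far above both controls, which lay near the lowest scores that the lists hold. The locus near *Exo5*, an exonuclease gene, rose from 15.3 and 15 to 177.8 and 191.6 (3.66 ± 0.12). The locus 20.7 kb upstream of *Csf3r*, the receptor for G-CSF, rose from 17.5 and 23.4 to 206.0 and 205.2 (3.40 ± 0.12). A locus 3.53 kb upstream of *Ear4*, of the eosinophil-associated ribonuclease family, rose from 10.4 and 15 to 124.8 and 128.4 (3.39 ± 0.15). At these 3 loci both treated samples stood over 100 units above both controls.

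Feedback and signaling genes were also among the 15 largest rises. *Socs1* encodes an inhibitor of Jak kinases. A locus 90.5 kb from its TSS, inside *Clec16a*, rose from 24.3 and 25.3 to 219.2 and 226.0 (3.22 ± 0.10, limma adjusted p = 6e-38). A locus at *Map3k12*, a kinase upstream of Jnk, rose from 26.1 and 23.1 to 238.4 and 228.1 (3.30 ± 0.10), and RefSeq places it in both *Map3k12* and *Pcbp2*. The locus at *Sacm1l*, a phosphoinositide phosphatase, was already well acetylated at 69.4 and 78.1 and reached 541.0 and 552.3 (2.95 ± 0.07), the highest treated score of the 15. Near *Ccl1*, a chemokine, the score went from 11.1 and 15 to 110.3 and 100.3 (3.08 ± 0.15). The remaining loci of the 15, near *Nek10*, *Zfp609* (inside *Trip4*), *Ahi1*, *Chn2*, *Prkch*, and *St7*, rose by 2.92 to 3.17 (log2), from scores of 11.1 to 29.1 to scores of 92.3 to 238.4. None of the 15 was at a promoter, and their distances to the TSS ran from 3.53 to 152 kb.

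The largest falls were smaller than the largest rises, and they started from untreated scores of 38.4 to 340.2. A locus 270 kb upstream of *Kcnj16*, a potassium channel gene, at chr11:110697436-110698436, fell from 338.6 and 340.2 to 93.7 and 82.6 (log2 change −1.89 ± 0.07, limma adjusted p = 7.3e-34). A locus 13.6 kb from *Fpr2*, a receptor for formyl peptides, fell from 125.9 and 126.5 to 35.4 and 35.1 (−1.79 ± 0.11). A locus near *Dtnbp1*, which encodes dysbindin, fell from 90.6 and 89.0 to 23.8 and 26.4 (−1.79 ± 0.13). The scores of the untreated samples were close to each other in all 3, and both treated samples were far below them. At *Gldc*, the glycine decarboxylase gene, the score fell from 72.1 and 71.5 to 20.5 and 22.2 (−1.70 ± 0.14). A locus that the files assign to *Cecr6* lies inside *Il17ra*, the IL-17 receptor gene, and fell from 59.2 and 60 to 17.5 and 19.8 (−1.63 ± 0.15). A locus 223 kb from *Eea1*, an early endosome protein gene, fell from 181.7 and 189.9 to 58.6 and 65.3 (−1.53 ± 0.09). The other 9, near *Zfyve28*, *Zfat*, *Mid1ip1*, *Gpr83*, *Pid1*, *Tmem72*, *Dscam*, *Mamdc2*, and *Plxna1*, fell by 1.53 to 1.74 on the log2 scale. All 15 were distal, from 13.6 to 281 kb from a TSS.

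**Figure D2:**
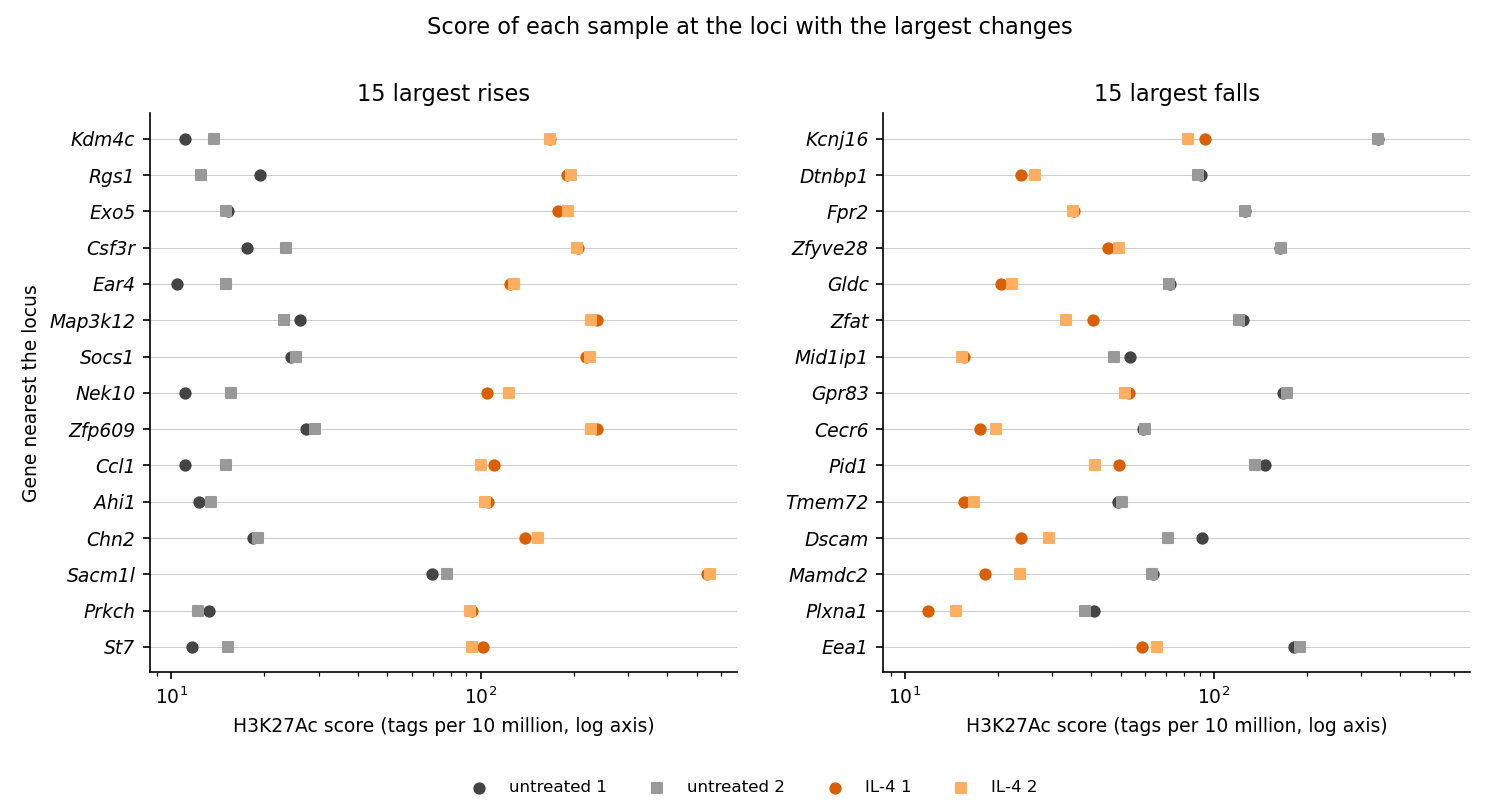
H3K27Ac score (tags per 10 M, log axis) of each of the 4 samples at the 15 loci with the largest rises (left) and the 15 with the largest falls (right), 1 line per locus named after its nearest gene. Untreated samples are dark and grey and IL-4 samples orange, and the groups are apart at each of these loci, as the choice of loci requires.

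Most loci near IL-4 response and alternative activation genes rose, in a list chosen with earlier results of these data known. Of 108 loci near 29 of the 38 listed genes, 79 rose and 12 fell, or 73.1% and 11.1% against 25.4% and 29.5% of all loci, and the median change was 0.61 against −0.01. Of their 14 promoter loci 13 rose and none fell, with a median of 0.98, although 1 fell without centring. The *Socs1* promoter, 0.524 kb upstream of the TSS, went from 175.0 and 168.4 to 683.7 and 646.0 (2.01 ± 0.06, limma adjusted p = 2.4e-40). A locus 2.84 kb upstream of *Arg1*, the arginase gene, went from 101.3 and 122.5 to 405.6 and 401.3 (1.91 ± 0.07). At the promoter of *Mgl2*, a lectin of alternatively activated macrophages, it went from 94.5 and 75.9 to 312.9 and 298.5 (1.90 ± 0.08). All loci assigned to *Socs1*, *Flt1*, and *Arg1* rose, which were 5, 5, and 3 loci. Near *Flt1*, a VEGF receptor gene, the locus 32.4 kb upstream rose from 211.2 and 205.3 to 606.9 and 638.7 (1.63 ± 0.06). Members that went the other way were chosen here after their values were seen. Of 9 loci near *Pparg*, the lipid-sensing nuclear receptor that IL-4 is known to use, 6 fell and 2 rose, from −0.56 to 0.58 (log2), and the single *Ccl17* locus changed by −0.36 and was not called.

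The receptor, Jak, Stat, and Socs genes were split. Of 77 loci, 24 rose (31.2%) and 20 fell (26.0%), near the shares of all loci, and the median was 0.09. Without centring, 20 rose and 21 fell. In this list 10 genes had only rises among their called loci and 3 had both rises and falls. The rises with the smallest p were at feedback inhibitors. The promoter of *Cish*, which blocks cytokine receptors, rose from 14.1 and 16.9 to 86.4 and 91.6 (2.58 ± 0.15, limma adjusted p = 5.2e-25), and the intron of *Ptpn2*, a phosphatase that acts on Jak and Stat proteins, from 130.8 and 142.5 to 443.0 and 440.9 (1.75 ± 0.06). A locus 38.1 kb upstream of *Socs6* fell from 230.8 and 199.0 to 110.3 and 111.8 (−0.90 ± 0.08). Among genes picked after their values were seen, both *Stat6* loci were lower, 1 of them past the test, with changes of −0.25 and −0.21, and 5 of 6 loci near *Il13ra1*, a subunit of the IL-4 and IL-13 receptor, fell by 0.22 to 1.09 over the 6 loci.

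**Figure D3:**
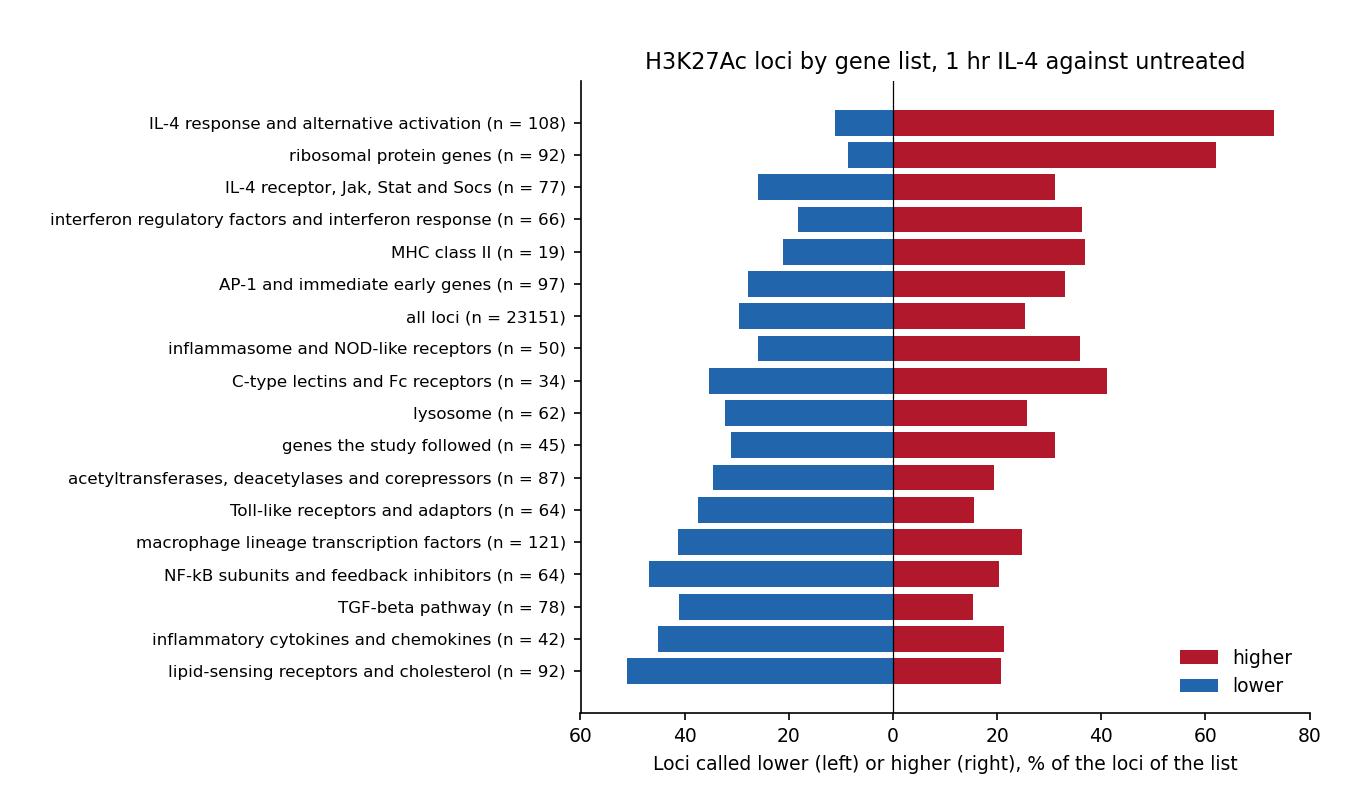
Percentage of the H3K27Ac loci of each gene list called higher (red, to the right) or lower (blue, to the left) after 1 hr IL-4, with the number of tested loci in brackets and the lists ordered by their median change. The list of IL-4 response genes (73.1% higher) and the ribosomal protein genes (62.0% higher) stand at the top, and lipid-sensing and cholesterol genes (51.1% lower) at the bottom.

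Loci near genes of the inflammatory response fell more often than they rose, as distal loci did over all genes. Of 42 loci near cytokine and chemokine genes 19 fell (45.2%) and 9 rose (21.4%), of 64 loci near NF-kB subunits and their feedback inhibitors 30 fell (46.9%) and 13 rose, and of 64 loci near Toll-like receptors and adaptors 24 fell (37.5%) and 10 rose. Across all loci 29.5% fell and across distal loci 39.5%, and of the distal loci of these lists 15 of 34, 26 of 49, and 19 of 44 fell. The medians were −0.18, −0.12, and −0.11 (log2). A locus 5.70 kb upstream of *Cxcl2*, a neutrophil chemokine gene, fell from 162.1 and 175.3 to 66.6 and 67.0 (−1.28 ± 0.09, limma adjusted p = 9.7e-21). Near *Nfkbiz*, an IkB family gene, the locus at 26.1 kb fell from 145.8 and 145.9 to 58.3 and 59.7 (−1.25 ± 0.09), and 10 of the 11 loci assigned to it fell. At *Tlr7*, a receptor for RNA, the locus 23.4 kb away, inside *Prps2*, fell from 126.5 and 119.0 to 56.6 and 64.2 (−0.97 ± 0.10). Loci near *Irak3* and *Tab2*, which act in Toll-like receptor signaling, fell by 0.76 and 0.63. Single members of these lists rose. The CC chemokine genes *Ccl12* and *Ccl8* lie beside each other on chromosome 11, where the *Ccl12* promoter rose from 35 and 32.8 to 135.8 and 130.5 (2.03 ± 0.11) and a *Ccl8* locus from 10.4 and 10.9 to 65.6 and 68.7 (2.71 ± 0.16). An intron of *Rel*, the c-Rel subunit of NF-kB, rose from 47.3 and 49.0 to 188.1 and 192.3 (2.04 ± 0.09), and the *Tlr8* promoter from 246.2 and 235.2 to 348.7 and 343.7 (0.58 ± 0.06).

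Of the functional lists, lipid-sensing and cholesterol genes had the highest share of falls. Of 92 loci 47 fell (51.1%) and 19 rose (20.7%), with a median of −0.23, and of their 73 distal loci 41 fell, where 39.5% of all distal loci did. An intron of *Apoc2*, an apolipoprotein gene, fell from 147.3 and 138.4 to 60.6 and 60.1 (−1.19 ± 0.09, limma adjusted p = 5e-18), and a locus 27.5 kb upstream of *Abca1*, the cholesterol efflux pump, from 386.5 and 397.1 to 220.5 and 227.4 (−0.75 ± 0.06). The 19 rises were spread over 8 genes, and they included loci near *Ch25h*, which makes 25-hydroxycholesterol, with 7 of 8 loci higher and the strongest going from 58.3 and 60 to 159.3 and 147.5 (1.43 ± 0.09), and at *Abcg1*, another efflux pump, whose intron rose from 193.4 and 194.6 to 316.9 and 344.4 (0.82 ± 0.06). *Ch25h* and *Pparg* stand in the list of IL-4 response genes as well.

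Loci near transcription factor genes of the macrophage lineage changed about as often as other loci at their distance. Of 121 loci 50 fell (41.3%) and 30 rose (24.8%), with a median of −0.11, but 106 of them were distal, where 48 fell and 25 rose, near the 39.5% and 21.7% of all distal loci. Of 16 loci near *Maf*, 11 fell and 1 rose, and the locus 439 kb upstream of *Mef2c* fell from 208.1 and 199.9 to 94.0 and 92.0 (−1.08 ± 0.08, limma adjusted p = 1e-19). An intron of *Tfec*, a factor of the Mitf family, rose from 37.5 and 35.3 to 190.7 and 161.4 (2.32 ± 0.10), and a *Runx1* intron from 137.2 and 135.9 to 282.4 and 278.8 (1.09 ± 0.07). AP-1 and immediate early genes were split, with 32 of 97 loci higher, 27 lower, and a median of 0.00, but 27 higher and 30 lower without centring. *Ier3*, a stress-induced gene, rose at its first exons from 177.1 and 186.5 to 573.5 and 557.2 (1.69 ± 0.06), a locus 273 kb upstream of *Klf4*, a Krüppel-like factor gene that IL-4 induces, from 81.7 and 86.2 to 245.4 and 266.6 (1.66 ± 0.08), and a *Batf3* locus from 134.5 and 136.8 to 343.7 and 312.8 (1.33 ± 0.07). The study also followed single genes that it took from its RNA data on IL-4, some induced and others repressed. Near these 9 genes 14 of 45 loci rose and 14 fell, so these counts pool both kinds. By gene, 2 had only rises among their called loci, 5 only falls, 1 had both, and 1 had no call. Rises lay near *Edn1* and *Hbegf*, which the study reports as induced. Falls lay near *Clec4d* and *Abca1*, which it reports as repressed.

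Ribosomal protein genes rose by small and even steps at their promoters. Of 61 promoter loci 51 rose and none fell, with a median change of 0.29 (log2), where 32.7% of all promoters rose, and 44 rose and none fell when scores were not centred. Over all 92 loci of this list 57 rose and 8 fell, and only 5 rose by 1.5-fold or more. Larger changes lay away from the promoters. A locus 47.2 kb from *Rps13*, inside *Pik3c2a*, went from 22.7 and 18.1 to 53.3 and 54.2 (1.46 ± 0.15, limma adjusted p = 5.6e-13). The largest rise of the list was near the pseudogene *Rpl34-ps1*, which the symbol rule took in, from 37.1 and 32.2 to 131.1 and 132.6 (1.98 ± 0.11).

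Changes came in runs along the genome. Among neighbouring loci that were both called, the direction was the same in 37 of 37 pairs under 5 kb apart, in 90.6% of 1358 pairs at 5 to 10 kb, in 74.6% of 1609 pairs at 25 to 50 kb, and in 60.4% of 1067 pairs over 100 kb apart. Neighbours share their libraries, and those under 5 kb apart can belong to 1 acetylated stretch, so they are not separate measurements. The gene with the most rises was *H2afy3*, with 11 of 13 loci higher and none lower, over 680 kb of chromosome 15. These 11 loci lie 140 to 819 kb beyond the end of *Myc*, the growth regulator, by RefSeq GRCm38.p6, and the strongest of them went from 12.0 and 10.9 to 79.1 and 70.8 (2.76 ± 0.16, limma adjusted p = 1.2e-24). *Cited2*, a coregulator that binds p300, had 10 of 16 loci higher and 4 lower. All 8 loci near each of *1700064M15Rik*, *2810055G20Rik*, *Cradd*, and *Pip4k2a* rose, as did 9 of 10 near *St7* with none lower. Near *1700019E08Rik* 9 of 15 rose and 2 fell, near *Klf4* 8 of 17 rose and 2 fell, and near *Klhl25* 8 of 11 rose and 1 fell.

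The most falls, 14 each, were near *Rftn1*, *Eea1*, and *Gm1653*. *Rftn1* encodes raftlin, a lipid raft protein, and all 14 of its loci fell, by 0.24 to 1.27 on the log2 scale, over 171 kb. Its strongest fall was from 194.6 and 199.3 to 80.8 and 76.7 (−1.27 ± 0.08, limma adjusted p = 4e-22). Near *Gm1653*, 14 of 16 loci fell and none rose, and near *Eea1* 14 of 18 fell and 3 rose. All 11 loci near *Nrp1*, a neuropilin gene, fell, with a median of −0.92, and 11 fell near each of *Btg1* (of 15, with 2 higher), *Maf* (of 16, with 1 higher), and *Sspn* (of 13, with 1 higher). Most genes with 2 called loci were not mixed, and genes with more called loci were mixed more often. Of 1480 genes with 2 called loci 76.7% had both in the same direction. Of 315 genes with 5 or more, 48.3% had a single direction, 47 with only rises and 105 with only falls.

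Promoters tended to follow their distal loci, for rises and for falls, when set against the background at promoters. Where all called distal loci of a gene were higher, 65.5% of 667 promoters were higher and 2.85% lower, with 31.6% not called. Where they were all lower, 24.9% of 1349 promoters were lower and 16.2% higher, with 58.9% not called. The background at promoters was 32.7% higher and 9.92% lower.

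The pattern TTCNNNNGAA was more common at loci that rose. Windows of 1 kb around the strongest region of each locus were searched on GRCm38, and both strands are covered because the pattern reads the same on either. It was present in 24.2% of all 23151 windows, in 35.7% of those of higher loci and in 19.5% of those of lower loci. At distal loci that rose by at least 1.5-fold the share was 51.6% (95% Wilson interval 49.3 to 53.9, counting error only), at those that rose by at least 2-fold 60.9% (57.6 to 64.0), at those not called 24.6% (23.5 to 25.7), and at those that fell by at least 1.5-fold 19.3% (17.9 to 20.9). It was found in 13 of the 15 largest rises, all but *Chn2* and *Prkch*, and in 4 of the 15 largest falls, *Dtnbp1*, *Fpr2*, *Gpr83*, and *Dscam*. The number of copies went with the share of rises. Of distal loci with no copy 7.65% rose by 1.5-fold or more, of those with 1 copy 19.7%, with 2 copies 35.2%, and of the 81 loci with 3 or more 46.9%. The share of falls went from 18.4% with no copy to 6.17% with 3 or more.

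The share depended on the spacer. With spacers from 1 to 8 bases, a scan added after the data were seen, the pair was found at 29.0% to 33.3% of the distal loci that rose by 1.5-fold, except for spacers of 3 bases (38.8%) and 4 bases (51.6%). At distal loci not called, spacers of 3 and 4 bases were found at 28.6% and 24.6%. TTCNNNGAA, the spacing that other Stat proteins prefer, was in 31.3% of higher and 25.6% of lower loci, against 27.1% of all, and a window may hold both patterns, as 6 of the 15 largest rises did (*Kdm4c*, *Exo5*, *Csf3r*, *Map3k12*, *Nek10*, and *Sacm1l*). Base composition differed little between the distal classes, with a median GC content of 44.4% where H3K27Ac rose by 1.5-fold, 45.1% where it fell, and 46.3% where it was not called.

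**Figure D4:**
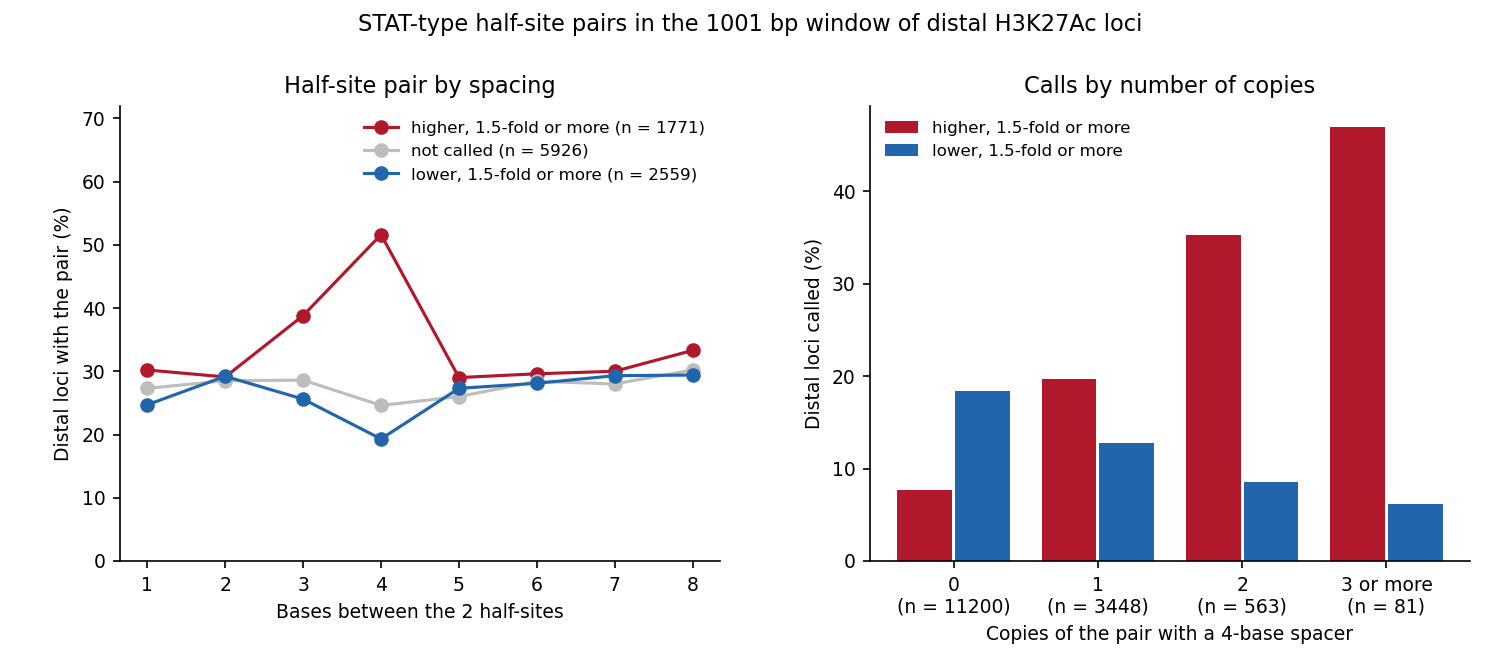
Left, percentage of distal loci whose 1 kb window holds TTC and GAA with 1 to 8 bases between them, for loci higher by 1.5-fold or more (red), not called (grey), and lower by 1.5-fold or more (blue); the red line leaves the others at 3 bases (38.8%) and 4 bases (51.6%). Right, percentage of distal loci called higher or lower by 1.5-fold or more by the number of copies with a spacer of 4 bases, from 0 to 3 or more; rises go from 7.65% to 46.9% and falls from 18.4% to 6.17%.

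The loose AP-1 pattern, with any middle base, went the other way. TGANTCA, which also reads the same on both strands, was in 32.1% of all windows, in 42.4% of those of lower loci and in 28.5% of those of higher loci. Within distal loci the gap was narrower, with 47.3% where H3K27Ac fell by 1.5-fold (45.4 to 49.3), 39.9% where it rose (37.7 to 42.2), and 36.1% where it was not called. It was found in 8 of the 15 largest falls, such as those near *Kcnj16*, *Gldc*, *Zfat*, and *Pid1* shown above, and in 5 of the 15 largest rises. GGAAGT, the core of PU.1 and other Ets factors, searched on both strands, was in 67.4% of higher, 70.4% of lower, and 68.0% of all windows. GGGANTTTCC, an NF-kB pattern, also searched on both strands, was rare, in 1.43% of higher, 1.60% of lower, and 1.44% of all windows.

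Peaks of other proteins in the same experiment were counted within 500 bp of the H3K27Ac loci, in libraries of their own. RNAPII-pS5, the form of RNA polymerase II found at transcription starts, was listed at more of the loci that rose and at fewer of those that fell. At distal loci that rose by 1.5-fold it was found at 63.7% and 53.6% in the untreated samples and at 79.4% and 74.6% with IL-4. At distal loci that fell by 1.5-fold it was found at 82.6% and 73.1% without and at 53.0% and 48.1% with IL-4. The groups did not overlap in either class. At distal loci not called, 68.2% and 58.1% without and 57.9% and 53.1% with IL-4 had a peak, so that the share also dropped there. Of the 15 largest rises 6 and 6 had a peak without and 15 and 14 with IL-4, and of the 15 largest falls 15 and 13 without and 6 and 6 with IL-4. With 2 samples per group no exact test can reach p under 0.05, so these shares are given without a test.

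p300, the acetyltransferase, was at nearly all distal loci before and after IL-4. At those that rose by 1.5-fold it was found at 93.2% and 99% without and 99.4% and 99.5% with IL-4, and at those that fell at 98.6% and 99.8% without and 99.4% and 99.6% with it. The list of the first untreated p300 sample was shorter, with 44787 peaks against 66710 to 69360 in the others. With the higher-scoring peaks of each list alone, p300 was found at 68.1% and 85% of the distal loci that rose without and at 95.6% and 96.4% with IL-4. At those that fell it was found at 87.7% and 96.5% without and 89.1% and 90% with it. At distal loci not called it was found at 57.0% and 76.3% without and 74.7% and 75.7% with it. The part of the shorter list in these shares was not tested. PU.1, the factor that sets up macrophage enhancers, was found at 84.9% and 81.3% of the distal loci that rose without and at 92.5% and 94.1% with IL-4, and at 87.3% and 84.2% of those that fell without and 81.0% and 82.0% with it. In both classes the groups of PU.1 samples were apart, by smaller steps than for RNAPII-pS5. At distal loci not called, PU.1 was found at 77.0% and 70.4% without and 75.3% and 76.9% with IL-4, where the groups overlap.

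Deacetylase peaks were listed at more of the distal loci that rose. At distal loci that rose, HDAC1 went from 68.3% and 60.9% to 73.9% and 70.0%, HDAC2 from 66.0% and 61.0% to 84.9% and 73.7%, and HDAC3 from 38.1% and 27.6% to 62.2% and 56.4%, and the groups of samples were apart for all 3. At distal loci that fell, HDAC1 went from 77.2% and 70.5% to 50.6% and 51.4%, HDAC2 from 76.0% and 70.5% to 69.2% and 55.6%, and HDAC3 from 49.7% and 36.4% to 42.3% and 37.4%, where the groups overlap for HDAC3. At distal loci not called, HDAC1 went from 62.8% and 56% to 49.9% and 47.1%, HDAC2 from 57.2% and 52.5% to 63.6% and 47.5%, and HDAC3 from 28% and 19.4% to 30.9% and 26.7%. HDAC3 was listed at 4 and 4 of the 15 largest rises without and at 15 and 12 with IL-4. The labels give the HDAC3 libraries the catalogue number of the H3K27Ac antibody while the study's list of reagents gives another, so which antibody was used cannot be told from these sources, and the HDAC3 values hold only as labelled.

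**Figure D5:**
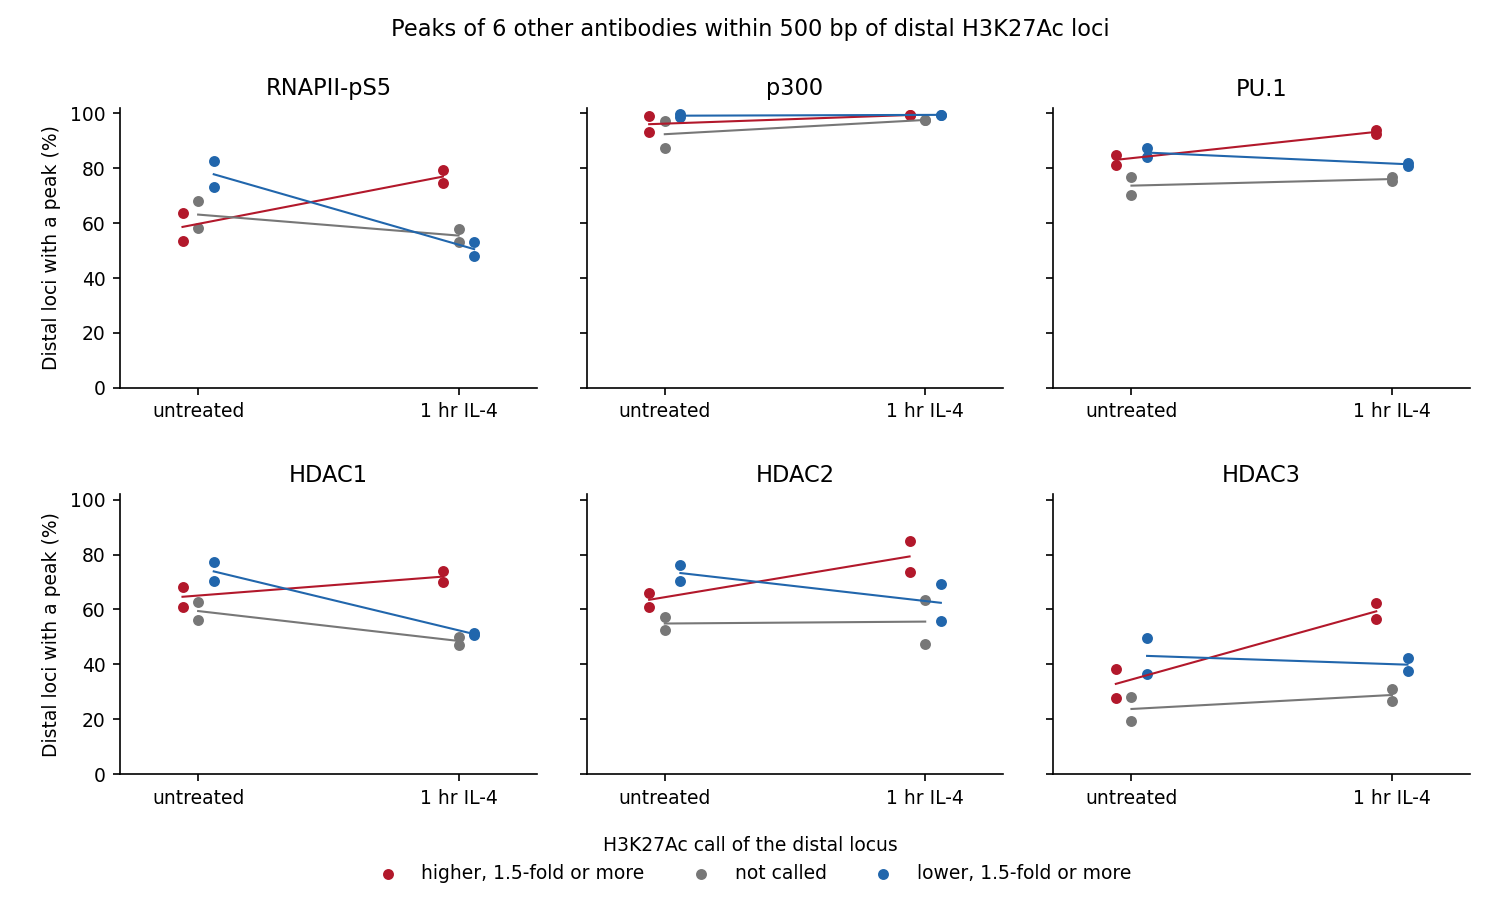
Percentage of distal H3K27Ac loci with a peak of each of 6 other antibodies within 500 bp, in the 2 untreated and 2 IL-4 samples of that antibody (points) with a line between group means, for loci whose H3K27Ac was higher by 1.5-fold or more (red), lower by 1.5-fold or more (blue), or not called (grey). The RNAPII-pS5 lines cross, from 58.7% to 77.0% in red and from 77.8% to 50.5% in blue, while p300 stays near 100%.

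Some loci were listed in a single group. A region was found in both IL-4 samples and neither untreated sample at 1295 loci, called gained here, and in both untreated and neither IL-4 sample at 1492 loci, called lost. Most lost loci were weak, with a median score of 15.8, near the lowest score in the lists of 9.1. Gained loci had a median of 27.1 and an upper quartile of 72.9. At least 2 times the lowest score was reached by 863 gained and 609 lost loci. Promoters held 13.3% of the gained and 7.24% of the lost loci, where 7859 of the 23151 tested loci were promoter loci. Strong exceptions were the intron of *Csf1r*, the M-CSF receptor gene, listed at 1207.9 and 1185.1 with IL-4 alone, and regions at *Zc3h4* (917.8 and 882.1), *Slfn2* (899.6 and 872.7), *Cerk* (704.6 and 745.7), and *Ctsb*, the cathepsin B gene (716.5 and 721.4). On the lost side, regions 83.6 kb from *Zeb2* (889.9 and 873.2), near *Capza2* (736.4 and 645.1), at the *Atp6v1a* promoter (714.3 and 661.4), near *Abr* (676.9 and 661.1), and in *Dhrs3* (642.5 and 652.0) were listed without IL-4 alone.

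These strong cases are not measured as on or off. A region missing from a list has no score, and it is not a score of 0. Of the 163 gained loci with a score of 200 or more, 92.6% and 85.9% had an RNAPII-pS5 peak in the untreated samples, and so did the loci at *Csf1r*, *Zc3h4*, *Slfn2*, *Cerk*, and *Ctsb*. Of the 120 lost loci of that score 93.3% and 94.2% had such a peak with IL-4. Over all 1295 gained loci RNAPII-pS5 was listed at 31.2% and 26.6% without and at 50.7% and 47.8% with IL-4, and over all 1492 lost loci at 38.3% and 30% without and at 25.9% and 23.7% with it.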

How the data were processed

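The authors aligned ChIP-seq reads of the double cross-linked chromatin to mm10 with BWA (0.7.10 per the submitters' processing notes), called H3K27Ac regions in each sample with HOMER's findPeaks (HOMER 4.2, histone style, regions of 1001 bp), removed blacklisted regions, and annotated the nearest TSS. The deposited H3K27Ac value is a signal of tags per 10 M (M, 1000000) tags. For the other antibodies, the authors called peaks with MACS2 (2.0.10), and the deposited score of each peak is on a −log10 scale, used here to pick the higher-scoring peaks in an alternative. No input library is named in the sources used here. Every H3K27Ac score was a whole multiple of the value of 1 tag (0.307 to 0.347), from which library sizes were derived.

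Regions overlapping by at least 1 bp were merged, the highest score per sample was kept, and loci with a region in all 4 samples were compared with limma 3.58.1 (R 4.3.3, eBayes with trend) on log2 scores centred on the sample median. A call needed a Benjamini-Hochberg adjusted p of at most 0.05 over 23151 loci. Tags were simulated for this comparison at these depths, with the spread seen between replicates. Changes were set at 200 of the 23151 loci, up and down alike. There, 78% of changes of 0.5 and 97% of changes of 1 (log2) were found, and 5.91% of calls were false. Far more loci were called in the data, so these shares hold for the simulation only. The build was checked against RefSeq GRCm38.p6, where 90.7% of 5937 promoter loci had their TSS within 500 bp. Python 3.11.15, pandas 2.3.3, and pysam 0.24.0 were used. Loci were named by rule: the 15 largest rises and falls (1 locus per gene, no predicted or clone-named genes), up to 4 genes per list with the smallest p, the 5 strongest gained and lost regions, and the 5 genes with the most calls per direction, ties included. Some loci that this rule names are not reported here. The 17 functional and 9 marker lists and these rules were chosen with earlier results of these data known. RNAPII-pS2 lists were not used, since their peak names carry the treatment opposite to the labels. Whether numbers pair the samples was checked by the correlation of their deviations (r = 0.0485), and alternatives are given with the closing remarks.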

Additional observations from a re-analysis of the deposited data

How the results depend on the processing

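Named loci and counts were recomputed with no centring, quantile normalization, no trend, and missing scores set to the lowest. Other runs used summed scores, only loci with region centres within 500 bp, and limma voom on the recovered tags (added after the data were seen). The counts over all, promoter, distal, and named loci stayed within 1.5 times those reported. Summed scores gave the same counts as the main fit (5887 higher and 6827 lower), so that run adds no separate check. Merging regions within 1000 bp was applied to gained and lost loci alone (1239 and 1434), and calls were not recomputed with it. Of the gene lists, rises near acetyltransferase, deacetylase, and corepressor genes went from 17 to 11 without centring and near T cell markers from 1 to 2 with quantile normalization. With loci above the median of the mean score, so that fewer were tested, 3450 were higher and 3858 lower, 4749 distal loci were called, and all 80 named loci that were called and remained in the fit kept their call. The limit of 1.5-fold left 2197 higher, 2681 lower, 548 promoter, and 4330 distal loci. Leaving out 1 sample, where the lone sample is assumed to vary like the other group, gave 5013 to 5196 higher loci, 5766 to 6117 lower, 2678 to 2825 promoter, 8150 to 8488 distal, and 124 to 127 of the 127 called named loci, and without the first untreated sample *Cd79b*, *Cd22*, and *S100a8* lost their call. No named locus changed direction. With the replicate number as a block, 6003 loci were higher and 6913 lower, with 3450 promoter and 9466 distal calls, and deviations of samples with the same number did not correlate (r = 0.0485), so the numbers give no pairing. A region in at least 1 replicate gave 2569 gained and 3288 lost loci, and no region of the other group within 3000 bp (added) left 1195 and 1399. Over all called loci, the change in the share with a peak at higher loci minus that at lower loci moved from 13.8 to 10.8 percentage points for HDAC1, from 7.4 to 10.8 for PU.1, and from 7.1 to 16.9 for p300 with the higher-scoring peaks. The share of higher minus lower loci with the motif moved from 16.2 to 13.4 points for TTCNNNNGAA in a narrower window and from −13.9 to −12.0 for TGANTCA in a wider one, and the causes were not tested. edgeR and DESeq2 were not run, because the files hold normalized tags. The lowest scores rest on 27 to 30 tags, which limits precision at weak loci.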

Other observations

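Loci near genes of the TGF-beta pathway fell more often than they rose, with 32 of 78 lower (41.0% against 29.5% of all loci) and 12 higher. The median log2 change was −0.17. Of their 67 distal loci 29 fell, near the 39.5% of all distal loci. All 6 loci near *Smad3*, which carries the signal to the nucleus, fell, by 0.46 to 1.19, and 1 of them, 22.8 kb upstream, went from 91.8 and 90.3 to 39.4 and 40.3 (−1.14 ± 0.12 SE, limma adjusted p = 1.6e-13, n = 2 against 2). *Smad2*, its close relative, had a single locus that rose from 97.6 and 92.8 to 248.3 and 261.7 (1.47 ± 0.07), and *Ski*, which holds Smad proteins back, a locus that rose from 656.9 and 619.8 to 993.7 and 995.6 (0.69 ± 0.05).

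Near interferon genes 24 of 66 loci were higher (36.4%) and 12 lower (18.2%), against 25.4% and 29.5% of all loci, with a median of 0.07. Of their 26 promoter loci 10 rose, where 32.7% of all promoters did, and of their 40 distal loci 14, where 21.7% did. Without centring, 19 rose and 14 fell. The rises were spread over 13 genes, and the smallest p among them were at transcription factor genes: *Irf4*, which IL-4 is known to induce, 34.5 kb upstream, from 36.8 and 42.5 to 165.6 and 170.4 (2.14 ± 0.10), *Irf2* in an intron, from 139.4 and 130.6 to 349.0 and 373.5 (1.47 ± 0.07), and *Irf7*, from 74.9 and 70.9 to 204.3 and 204.1 (1.54 ± 0.08), at a locus inside *Cdhr5*. A locus near *Ifnar2*, an interferon receptor subunit, fell from 274.7 and 275.5 to 147.3 and 152.4 (−0.82 ± 0.07). Inflammasome genes were higher at 18 of 50 loci (36.0%) and lower at 13 (26.0%), with a median of −0.01. Without centring, 16 of these loci were higher and 17 lower. An intron of *Nek7*, which activates NLRP3, rose from 109.6 and 98.1 to 276.5 and 294.4 (1.51 ± 0.07), and an intron of *Naip2*, a sensor of bacterial proteins, fell from 102.8 and 112.2 to 41.4 and 49.6 (−1.19 ± 0.11).

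Enzymes that write and erase acetylation fell at 30 of 87 loci (34.5%) and rose at 17, or at 34 and 11 without centring, where 29.5% of all loci fell and 25.4% rose. Of their 64 distal loci 27 fell and 11 rose, near the 39.5% and 21.7% of all distal loci. Of 11 loci near *Tbl1xr1*, a subunit of the NCoR and SMRT corepressors, 9 fell and none rose, 1 of them from 285.8 and 284.3 to 97 and 113.2 (−1.39 ± 0.07). C-type lectin and Fc receptor genes changed at 26 of 34 loci, 14 up (41.2%) and 12 down (35.3%), or 13 and 14 without centring. An intron of *Fcgr2b*, the inhibitory Fc receptor, rose from 88.1 and 90.9 to 386.7 and 396.4 (2.18 ± 0.07), while a locus 9.13 kb upstream of *Clec4d* fell from 340.7 and 325.5 to 145.7 and 135.7 (−1.19 ± 0.07). Of the lysosome list 16 of 62 loci rose (25.8%) and 20 fell (32.3%), near the shares of all loci, and of the MHC class II list 7 of 19 rose (36.8%) and 4 fell (21.1%), or 5 and 5 without centring, the *Cd40* promoter going from 118.5 and 124.3 to 296.7 and 265.2 (1.26 ± 0.07).

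Marker genes of other cells also had loci in these macrophages. Of 12 loci near macrophage markers 7 fell and none rose, with a median of −0.20, and of 13 near T cell markers 7 fell and 1 rose, near *Cd2*, from 56.2 and 44.7 to 129.1 and 145.5 (1.5 ± 0.10). The 4 loci near B cell markers fell, 1 of 3 near NK cell markers fell, 2 of 3 near neutrophil markers rose, 3 of 5 near dendritic cell markers fell and 2 rose, and 3 of 4 near erythroid and megakaryocyte markers rose. The single loci near mast cell and fibroblast markers changed by 0.18 and −0.40, the second past the test.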
